A study of Mus musculus with 6 samples.

Results

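Of 10 mouse genes for the lipid droplet coat, droplet fusion and droplet assembly, 9 had values among the 13734 genes of the deposited table and the expression of Fitm1 is not analysed here. The genes were taken by symbol, from a list chosen with earlier results of these data known. They are the perilipin genes Plin1 to Plin5, the CIDE genes Cidea and Cidec, the seipin gene Bscl2 and the fat storage-inducing transmembrane gene Fitm2. The cells were white adipocytes differentiated from an immortalized subcutaneous mouse preadipocyte line with Dicer1 flox/flox alleles and a Cre-ERT2 recombinase, in medium with 20 nM insulin and 2.8 µM rosiglitazone, an agonist of the nuclear receptor PPARgamma. On day 6 of differentiation, 3 cultures received 10 µM 4-hydroxytamoxifen for 48 h, which activates the recombinase and removes Dicer1 (DICERKO), and 3 cultures received ethanol (control, which carries the same floxed alleles and recombinase). All 6 were then given 10 µM isoproterenol, a beta-adrenergic agonist, for 6 h. The effect of the deletion and that of the drug that induces it cannot be told apart here, and no unstimulated culture was compared. All libraries come from 1 line, and the labels number biological replicates without saying whether each was a separate differentiation. The p-values cover the spread seen among the libraries, which may in part be technical.

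Adipocytes keep triglyceride in droplets that bud from the endoplasmic reticulum under a phospholipid monolayer. Seipin and the FITM proteins act where droplets form and fill, perilipins coat the surface and control the access of lipases, and CIDE proteins pass lipid from small droplets to larger ones. In fat cells beta-adrenergic signalling through cyclic AMP leads to phosphorylation of perilipin 1, which frees the lipase activator encoded by Abhd5 and opens the droplet to lipolysis. Several of these genes are classic targets of PPARgamma, and loss of BSCL2, PLIN1 or CIDEC function in people causes lipodystrophy.

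Dicer1, the gene deleted, stood at 6.14, 6.09 and 6.14 log2 CPM (read counts scaled to library size, on the log2 scale) in controls and at 5.43, 5.47 and 5.49 in DICERKO replicates 1 to 3, below every control in each (limma difference -0.66, adjusted p = 0.0150). Reads over the whole gene were counted, so remaining signal does not show how many alleles kept the floxed part. The listed genes held 13569034 to 30268077 reads per library. DICERKO replicate 3 was the deepest library and lay apart from the other 2: a chi-square of reads over genes came to 85.5 and 92.8 per degree of freedom between it and DICERKO replicates 1 and 2, against 8.36 between those 2 and 12.1 to 26.4 between controls. That chi-square also grows with depth. Over all genes tested, differences from the control mean had an SD of 0.41, 0.39 and 0.35 in DICERKO replicates 1 to 3. Markers of mature adipocytes moved with DICERKO replicate 3. Of 12 such genes, summed CPM ran from 7035 to 9104 in controls and was 11613 and 11430 in DICERKO replicates 1 and 2 and 3489 in replicate 3. Fabp4 and Adipoq, which define adipocytes, were at 10.81 to 12.73 and 6.41 to 8.74 log2 CPM in all 6 libraries, lowest in DICERKO replicate 3. Against the control mean, the median of the 11 tested markers was 0.61, 0.67 and -1.16 on the log2 scale in DICERKO replicates 1 to 3. Lpl (-0.21, -0.38 and -1.44), Cd36 (-0.24, -0.07 and -2.01) and Car3 (-1.85, -1.11 and -4.33) were below the control mean in all 3. Of the 11 adipocyte markers tested, 0 passed with all libraries, where 0.438% of all genes tested did. Without DICERKO replicate 3, 8 rose and 1 (Car3) fell, where 12.5% of all genes tested rose and 7.22% fell. The part of this shift in the results on droplet genes was not tested, and in bulk RNA fewer adipocytes and less RNA per adipocyte cannot be told apart. Summed over 11 preadipocyte and fibroblast markers, CPM was 9318 to 10659 in controls and 6173, 6881 and 5309 in DICERKO. The matrix genes Col1a1, Col3a1, Col1a2 and Dcn, the most abundant of them, weigh most in that sum. With all libraries Pdgfra, Pdgfrb, Ly6a and Cd34 differed by -0.06, 0.02, -0.05 and -0.04 (limma adjusted p = 0.806, 0.953, 0.897 and 0.930). Of the 10 markers tested, Col3a1 fell with all libraries and 4 (Col3a1, Col1a1, Dcn and Thy1) fell without DICERKO replicate 3. The preadipocyte gene Dlk1 had 5.25 to 5.83 in the control libraries and 5.57, 5.58 and 6.44 log2 CPM in DICERKO. Summed CPM of 5 leukocyte markers, 32.9 to 37.9 in controls and 38.4 to 39.2 in DICERKO, was low in every library. Of 3 tested, 0 passed with all libraries and Cd68, a macrophage marker, rose without DICERKO replicate 3 (by 0.39, limma adjusted p = 0.0334). Cd68 was above every control in all 3 DICERKO libraries (4.51, 4.50 and 4.52 against 4.05 to 4.23 log2 CPM), as were 10.4% of all genes tested. The other tested leukocyte markers did not share this. Csf1r read 2.69, 3.12 and 2.56 in controls and 2.46, 2.44 and 2.99 in DICERKO. Cd14 read 3.52, 3.26 and 3.25 in controls and 3.25, 3.42 and 2.84 in DICERKO. The part of Cd68 in the results on droplet genes was not tested. The markers Ptprc, Adgre1 and Itgam were not analysed here. The limma tests of the droplet genes are given with and without DICERKO replicate 3.

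In DICERKO replicates 1 and 2 every droplet gene with a value was above all 3 controls (among genes tested, 28.2% were and 23.5% were below all), while in replicate 3 the genes parted. Plin1, Plin2, Plin4, Plin5, Cidec, Bscl2 and Fitm2 were below all 3 controls there, and Plin3 stayed above them. Of the 8 genes that passed the filter of 1 CPM in 3 libraries, 7 had this split pattern, which 8.48% of the 10054 genes tested had, and 17.6% did when set against the control mean alone. The medians of the 8 genes against the control mean were 0.45, 0.45 and -0.65 on the log2 scale in DICERKO replicates 1, 2 and 3, beside 0.03, 0.04 and 0.01 for all genes tested. Cidea did not pass the filter, since it reached 1 CPM in 2 libraries.

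**Figure D1:**
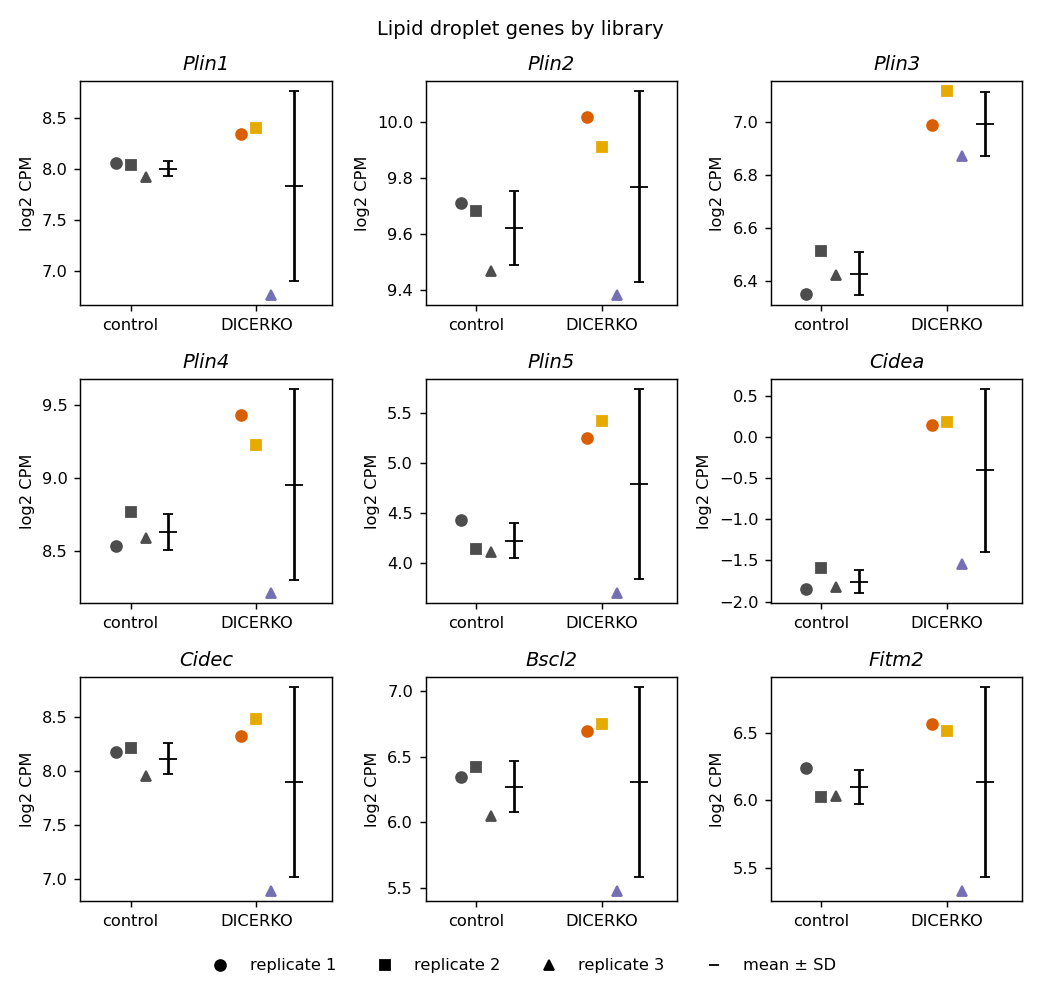
Level of each of the 9 droplet genes in log2 CPM (vertical axis) in the 3 control and 3 DICERKO libraries, with the group mean ± SD beside the points. In 7 panels the triangle of DICERKO replicate 3 lies below all controls, and in the panel of Plin3 it lies above them at 6.87.

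With all 6 libraries none of the 8 genes tested passed limma's Benjamini-Hochberg adjusted threshold of 0.05, which 0.438% of all genes tested passed (0.149% higher and 0.288% lower in DICERKO). At an unadjusted p under 0.05 there was 1, Plin3, where 15.8% of all genes were under that value. The median difference of the 8 genes was 0.09 on the log2 scale, against 0.02 over all genes. Without DICERKO replicate 3, 7 of the 8 rose and 0 fell, where 12.5% of all genes tested rose and 7.22% fell (19.7% in either direction). Over all genes these are 1257 and 726 calls, and 1037 and 1008 with each library centred on its median. All 8 had an unadjusted p under 0.05, as did 35% of all genes. Their median difference was then 0.45, against 0.02 over all genes. The p-values of that fit leave out the library that differed from the other 2 and so carry less spread than the DICERKO group holds.

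**Figure D2:**
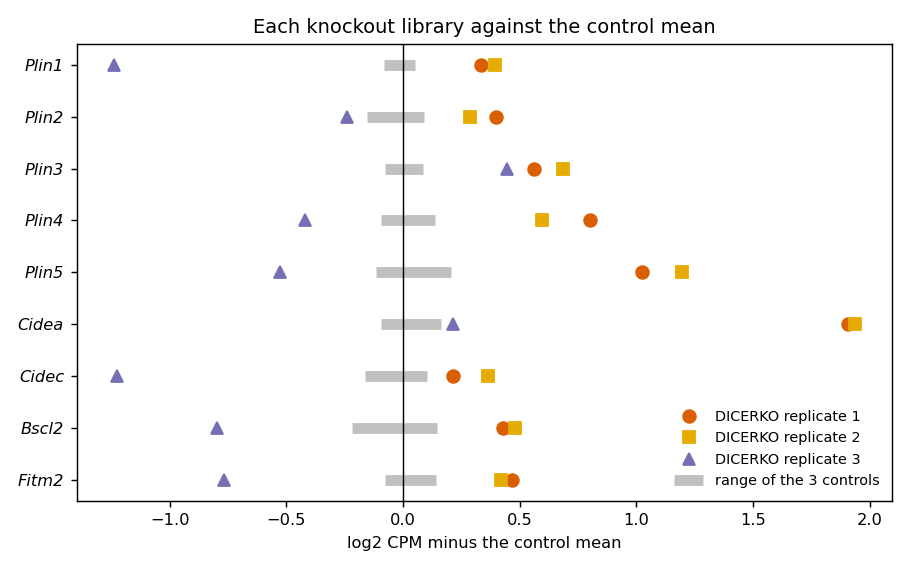
Difference of each DICERKO library from the mean of the 3 controls in log2 CPM (horizontal axis) for each droplet gene, with grey bars for the range of the controls. Replicates 1 and 2 lie to the right of the controls for every gene, and replicate 3 lies to the left for all but Plin3 and Cidea.

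Of the 8 tested droplet genes, Plin3 was the one whose groups did not overlap; the groups of Cidea, not tested, were apart by a narrow margin. It encodes TIP47, a perilipin found in most tissues that is soluble in the cytosol and moves onto small nascent droplets. Plin3 (Entrez 66905; GRCm38 chromosome 17, 56278962 to 56290511, minus strand) read 6.35, 6.51 and 6.42 log2 CPM in controls 1 to 3 and 6.99, 7.12 and 6.87 in DICERKO replicates 1 to 3. All 3 DICERKO libraries were above all 3 controls, as were 10.4% of all genes tested (9.81% were below). The mean was 6.43 ± 0.08 in controls and 6.99 ± 0.12 in DICERKO (SD, n = 3), which gives a log2 difference of 0.56 with an SE of 0.11 (adjusted p from limma 0.0574) (1.48-fold). That adjusted p lies near the threshold and passed it with the libraries scaled to reads on the listed genes (0.0416) or with no filter on low values (0.0469). Plin3 rose by 0.62 without DICERKO replicate 3 (SE 0.10, limma adjusted p = 0.000472). With any other library left out the difference ran from 0.50 to 0.61 and the adjusted p from 0.119 to 0.270.

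Plin5, Plin4 and Plin3 lie on chromosome 17, Plin4 and Plin5 next to each other. Plin5, which is known from oxidative tissues for tethering droplets to mitochondria, had the largest rise of the tested droplet genes without DICERKO replicate 3. Plin5 (Entrez 66968; GRCm38 chromosome 17, 56111597 to 56117606, minus strand) read 4.43, 4.14 and 4.11 log2 CPM in controls and 5.25, 5.42 and 3.70 in DICERKO. DICERKO replicates 1 and 2 were above the highest control and replicate 3 was below the lowest, so the groups overlapped. With all libraries the difference was 0.56 (SE 0.36, limma adjusted p = 0.435), the same size as for Plin3 with a larger SE. Plin5 rose by 1.11 without DICERKO replicate 3 (SE 0.13, adjusted p = 2.77e-05), or 2.16-fold.

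Plin4, a perilipin of adipocytes that coats small new droplets, read 8.53, 8.77 and 8.59 log2 CPM in controls and 9.43, 9.23 and 8.21 in DICERKO. It had the same split as Plin5, with replicate 3 below the controls by a smaller step. Plin4 (Entrez 57435; GRCm38 chromosome 17, 56100587 to 56109948, minus strand) differed by 0.33 with all libraries (SE 0.26, limma adjusted p = 0.514) and rose by 0.70 without DICERKO replicate 3 (SE 0.11, adjusted p = 0.000358). Hdgfl2 overlaps Plin4 on the opposite strand, and the counting is not stated to use strand. Hdgfl2 differed by -0.03 (limma adjusted p = 0.891), with 6.42 to 6.59 log2 CPM in controls and 6.38 to 6.60 in DICERKO.

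Plin1, the perilipin that guards the adipocyte droplet from lipases until it is phosphorylated, had, with Cidec, the lowest value in DICERKO replicate 3 against the controls. Plin1 (Entrez 103968; GRCm38 chromosome 7, 79721164 to 79732904, minus strand) read 8.06, 8.04 and 7.93 log2 CPM in controls and 8.34, 8.40 and 6.77 in DICERKO. Against the control mean that is 0.34, 0.39 and -1.24 in replicates 1 to 3. With all libraries it differed by -0.17 (SE 0.34, limma adjusted p = 0.814). The sign turned without DICERKO replicate 3, where Plin1 rose by 0.36 (SE 0.09, adjusted p = 0.0139).

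Plin2, the perilipin of nearly all cells that store lipid, moved least of the perilipins in replicate 3. Plin2 (Entrez 11520; GRCm38 chromosome 4, 86626910 to 86670217, minus strand) read 9.71, 9.68 and 9.47 log2 CPM in controls and 10.02, 9.91 and 9.38 in DICERKO. Its replicate 3 was 0.24 below the control mean and 0.09 below the lowest control. The difference with all libraries was 0.15 (SE 0.17, limma adjusted p = 0.648), and without DICERKO replicate 3 Plin2 rose by 0.34 (SE 0.11, adjusted p = 0.0348). That call was lost with the libraries centred on their medians (limma adjusted p = 0.0660).

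**Figure D3:**
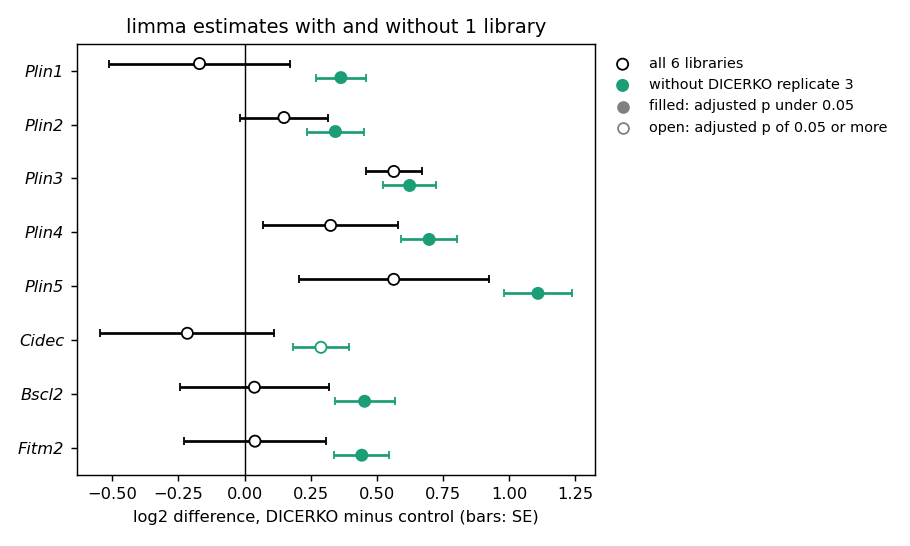
The limma difference, DICERKO minus control on the log2 scale, with its SE for the 8 droplet genes tested, with all 6 libraries and without DICERKO replicate 3. Filled points passed the adjusted threshold of 0.05: 0 of 8 with all libraries, and 7 of 8 without that library, Cidec being the open point.

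The CIDE genes differed widely in level, Cidec being abundant and Cidea nearly absent. Cidec, also called Fsp27, drives lipid transfer into the single large droplet of white adipocytes. Cidec (Entrez 14311; GRCm38 chromosome 6, 113424634 to 113435760, minus strand) read 8.18, 8.22 and 7.95 log2 CPM in controls and 8.33, 8.48 and 6.89 in DICERKO. It followed Plin1 closely, with 0.21, 0.36 and -1.23 against the control mean in DICERKO replicates 1 to 3. With all libraries Cidec differed by -0.22 (SE 0.33, limma adjusted p = 0.749), and without DICERKO replicate 3 by 0.29 (SE 0.11, adjusted p = 0.0666), so it passed in neither. It did pass without that library when libraries were weighted (difference 0.24, limma adjusted p = 0.0131). So it did with a term for replicate number (difference 0.21, limma adjusted p = 0.0143). These settings called 4684 and 4792 of all genes tested, and the estimation of the weights stopped before converging.

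Cidea, the CIDE gene typical of brown and beige fat, was near the limit of detection. Its 6, 7 and 6 reads in controls and 19, 27 and 14 reads in DICERKO correspond to -1.85, -1.60 and -1.82 log2 CPM and to 0.15, 0.18 and -1.55. DICERKO replicates 1 and 2 were higher by 1.91 and 1.94 than the control mean, the largest differences of any droplet gene in those libraries, and replicate 3 was 0.05 above the highest control. With no filter on low values (13734 genes) Cidea differed by 1.35 (SE 0.49, limma adjusted p = 0.270) with all libraries, and it rose by 1.92 (SE 0.45, adjusted p = 0.00543) without DICERKO replicate 3. These values rest on counts this small, and the deposited log2 scale adds 0.5 read to each.

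Of the assembly genes, Bscl2 encodes seipin, which forms the ring at sites of droplet budding. Bscl2 (Entrez 14705; GRCm38 chromosome 19, 8837467 to 8848683, plus strand) read 6.34, 6.42 and 6.05 log2 CPM in controls and 6.70, 6.75 and 5.48 in DICERKO. Fitm2, an endoplasmic reticulum protein needed for droplets to bud, read 6.24, 6.02 and 6.03 in controls and 6.57, 6.52 and 5.33 in DICERKO (Entrez 228859; GRCm38 chromosome 2, 163468703 to 163472629, minus strand). Both were above the controls in DICERKO replicates 1 and 2 and below them in replicate 3. With all libraries Bscl2 differed by 0.04 (SE 0.28, limma adjusted p = 0.954) and Fitm2 by 0.04 (SE 0.27, adjusted p = 0.950). Bscl2 rose by 0.45 without DICERKO replicate 3 (SE 0.11, adjusted p = 0.0111) and Fitm2 by 0.44 (SE 0.10, adjusted p = 0.00722). Gng3 on the opposite strand of Bscl2 and 2310001K24Rik on that of Fitm2 were both low, at most -0.80 and -1.35 log2 CPM in any library. An annotated protein-coding transcript unit also overlaps Bscl2 on its own strand, so reads may be shared.

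Levels were compared between genes per length, as CPM per kilobase of annotated exon (RPKM, with the exons of the GENCODE M21 basic set). In controls Plin2 led with 418 ± 37.5 RPKM (SD, n = 3), followed by Cidec with 158 ± 15.4. Plin4 (68.7 ± 5.92) and Plin1 (66.4 ± 3.16) did not differ beyond their spread. Below them came Bscl2 (34.4 ± 4.47), Plin3 (23.7 ± 1.35), Fitm2 (17.3 ± 1.51), Plin5 (9.01 ± 1.15) and Cidea (0.266 ± 0.0267). With the exons of the full GENCODE set Bscl2 stood at 13.2 ± 1.71, below Plin3 and Fitm2, and Plin1 at 55.3 ± 2.63, apart from Plin4 (68.7 ± 5.92). The order of these genes therefore depends on which exons are counted, while Plin2, at 225 ± 20.2, was still the highest.

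The makeup of the perilipin coat at the level of transcripts was dominated by Plin2 in every library. Plin2 took 69.9 to 72.9% of the summed RPKM of Plin1 to Plin5 in controls and 68.2, 67.2 and 75.0% in DICERKO replicates 1 to 3. The share of Plin1 was 11.1 to 11.7% in controls and 10.4, 11.5 and 5.97% in DICERKO. Plin3 took 3.67 to 4.39% in controls and 4.33, 5.02 and 6.83% in DICERKO, so that in replicate 3 its share exceeded that of Plin1. The summed level of the 5 genes was 537 to 612 RPKM in controls and 806, 759 and 471 in DICERKO. For each of the 5 shares the groups overlapped. These values use the exons of the basic GENCODE set. With the full set the share of Plin2 was 57.4 to 60.9% in controls and 55.1, 54.0 and 62.9% in DICERKO replicates 1 to 3.

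**Figure D4:**
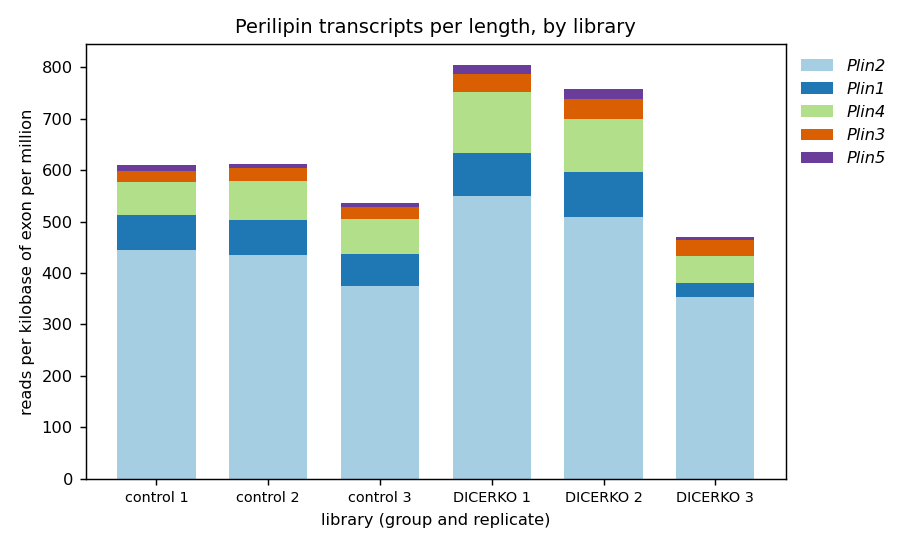
Stacked CPM per kilobase of exon (RPKM, basic GENCODE set) for Plin1 to Plin5 (vertical axis) in each of the 6 libraries (horizontal axis). Plin2 is the largest block in every bar, and the bar of DICERKO replicate 3 is the shortest at 471, with a Plin1 block of 28.1 against 62.8 to 68.7 in controls.

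Levels relative to Plin1 in the same library were also compared, a measure chosen after the values had been seen, since it cancels library scaling. Cidec kept a nearly constant level relative to Plin1, 0.11 ± 0.08 in controls and 0.06 ± 0.07 in DICERKO on the log2 scale (SD, n = 3), with a range of -0.01 to 0.18 over all 6 libraries. Plin5 relative to Plin1 was -3.63, -3.90 and -3.82 in controls and -3.09, -2.98 and -3.07 in DICERKO. All 3 DICERKO libraries were above the controls by a similar step, replicate 3 included, and the group means differed by 0.73.

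Plin4 relative to Plin1 was 0.48, 0.73 and 0.66 in controls and 1.09, 0.83 and 1.44 in DICERKO. In DICERKO replicate 3 Plin4 and Plin5 were themselves below every control, and Plin1 was further below (-0.42, -0.53 and -1.24 against the control mean). Plin3 relative to Plin1 was -1.71, -1.52 and -1.50 in controls and -1.35, -1.28 and 0.11 in DICERKO, where replicate 3 makes most of the difference. Cidea relative to Plin1, resting on 6 to 27 reads, was -9.91 to -9.63 in controls and -8.31 to -8.19 in DICERKO. For these 4 genes the groups did not overlap, and relative to Plin1 4.91% of all tested genes had DICERKO above every control.

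For Plin2, Bscl2 and Fitm2 relative to Plin1 the groups overlapped. An exact two-sided permutation test gave p = 0.1 for each of the 4 separated ratios (0.2 adjusted over 8 ratios), the smallest that 3 against 3 can give, so none could pass. In a limma fit of all genes scaled to Plin1, 0 of 7 tested droplet genes passed with all libraries, where 0.0298% of all genes were called higher. There the ratio of Plin5 had limma adjusted p = 0.9998 (SE 0.59), although its own SD was 0.14 in controls and 0.06 in DICERKO. The SE from limma draws on a variance shared over all genes, and the spread of Plin1 enters every gene. With DICERKO replicate 3 left out, Plin5 (by 0.75, limma adjusted p = 0.00115) and Plin4 (by 0.33, adjusted p = 0.0373) rose relative to Plin1, where 2.70% of all genes did and 44.4% fell. Both p-values come from a ratio chosen after the values had been seen and from a fit without the library that differed.

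**Figure D5:**
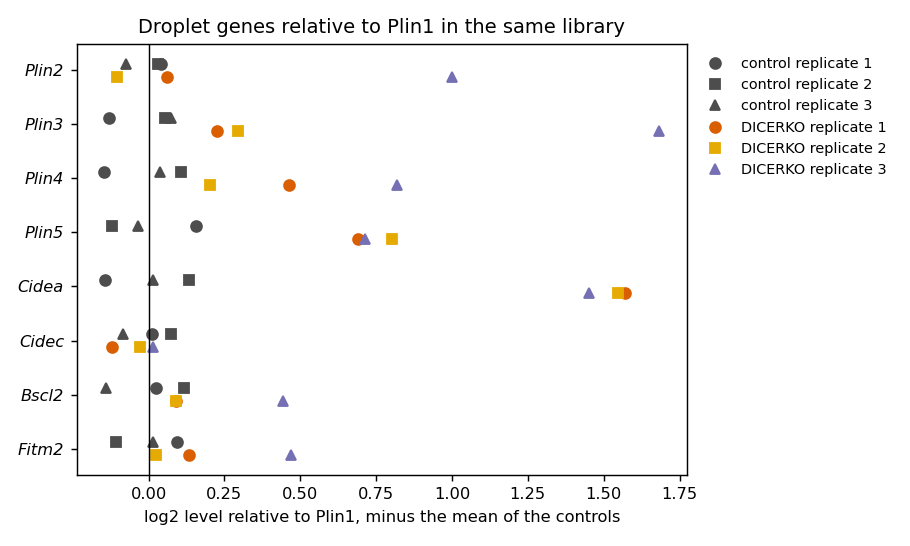
Level of each other droplet gene relative to Plin1 in the same library on the log2 scale, minus the mean of the controls (horizontal axis). The 3 DICERKO libraries lie to the right of all controls for Plin3, Plin4, Plin5 and Cidea, and those of Cidec overlap the controls, with DICERKO replicate 1 just below them.

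Correlations of log2 CPM over the 6 libraries, are given as a description. The libraries share 2 groups and a set of adipocyte genes that moves together, so these values do not stand for shared control. Cidec, Bscl2 and Fitm2 had Pearson r = 0.993, 0.961 and 0.967 with Plin1. Plin2, Plin4 and Plin5 had 0.823, 0.817 and 0.799, and Plin3 had 0.0522. Plin3 was closest to Cidea among the droplet genes (0.875).

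Outside the droplet genes, the highest of 10046 correlations with Plin1 were those of Ormdl3, a regulator of sphingolipid synthesis (0.999), the glutathione transferase gene Gstt1 (0.995) and the amino acid transporter gene Slc36a2 (0.993). With Fitm2 they were Cebpa, an adipogenic transcription factor gene (0.998), the FGF21 co-receptor gene Klb (0.996) and Ripply3 (0.995). Plin1, Fitm2 and the genes named with them were all lowest in DICERKO replicate 3. Correlations without that library were not computed, and each gene named was picked as a maximum over 6 libraries. The genes most like Plin3 were Ccnd2, which encodes cyclin D2 (0.996), the lysosomal glycoprotein gene Gpnmb (0.990) and the histone gene H2bc8 (0.988). With Cidea they were Cdip1, the ubiquitin ligase gene Nedd4 and the acyl-CoA synthetase gene Acsf2, all at 0.996 or above. Gpnmb read 8.34, 8.44 and 8.26 log2 CPM in controls and 9.03, 9.24 and 8.91 in DICERKO.

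Promoter sequences from RefSeq (GRCm38.p6) are shown for the perilipin gene that stayed high in every DICERKO library (Plin3), for the one lowest against the controls in replicate 3 (Plin1), and for Plin2 and Plin5, which hold motif matches. Each runs from 250 bases before the start site to 50 after it, and the minus strand is given since all 4 genes lie on it. The windows are chr17:56290462-56290761 for Plin3, chr7:79732727-79733026 for Plin1, chr4:86670010-86670309 for Plin2 and chr17:56117249-56117548 for Plin5. Capitals mark exact matches to the motifs searched.
Plin3: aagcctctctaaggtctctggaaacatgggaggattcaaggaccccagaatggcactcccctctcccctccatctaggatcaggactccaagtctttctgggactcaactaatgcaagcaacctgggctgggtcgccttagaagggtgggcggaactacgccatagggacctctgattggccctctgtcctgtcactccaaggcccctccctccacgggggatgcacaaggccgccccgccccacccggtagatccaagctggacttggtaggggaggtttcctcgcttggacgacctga
Plin1: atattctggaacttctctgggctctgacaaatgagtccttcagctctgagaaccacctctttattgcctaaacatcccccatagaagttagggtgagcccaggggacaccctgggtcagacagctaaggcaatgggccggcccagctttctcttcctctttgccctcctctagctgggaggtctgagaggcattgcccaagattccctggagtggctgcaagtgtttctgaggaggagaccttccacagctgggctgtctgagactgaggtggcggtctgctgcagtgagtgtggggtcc
Plin2: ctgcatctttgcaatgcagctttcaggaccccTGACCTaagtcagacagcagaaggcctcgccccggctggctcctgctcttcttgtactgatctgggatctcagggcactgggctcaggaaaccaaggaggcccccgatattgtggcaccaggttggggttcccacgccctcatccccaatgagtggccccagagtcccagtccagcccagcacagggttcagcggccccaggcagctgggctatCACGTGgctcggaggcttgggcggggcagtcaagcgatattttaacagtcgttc
Plin5: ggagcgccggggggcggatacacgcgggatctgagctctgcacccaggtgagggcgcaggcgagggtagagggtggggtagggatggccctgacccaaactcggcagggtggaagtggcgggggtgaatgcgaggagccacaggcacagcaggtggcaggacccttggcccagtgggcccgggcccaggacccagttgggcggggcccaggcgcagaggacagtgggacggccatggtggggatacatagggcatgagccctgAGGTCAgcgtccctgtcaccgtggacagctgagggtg

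The motifs searched on both strands were the peroxisome proliferator response element (a direct repeat of AGGTCA with any 1 base between), the single AGGTCA contained in it, the cyclic AMP response element TGACGTCA, the shorter TGACG contained in that element and the E-box CACGTG. No window of the 9 droplet genes with a promoter entry, Fitm1 included, held the full PPAR element, which 0.0396% of 32851 promoter windows hold, or the full cyclic AMP element, which 1.79% hold. The single AGGTCA was found in 4 of their 13 windows (1 of Plin2, 1 of Bscl2 and both overlapping windows of Plin5), beside 16.3% of all windows. Plin2 also held an E-box across its start site, found in 7.15% of all windows, and Fitm1 held the single TGACG, found in 20.8%. The windows of Plin1, Plin3, Plin4, Cidec and Fitm2 held none of the 5 motifs. A match or its lack in so short a window says nothing of binding, and known elements of these genes can lie farther away.

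Because Dicer1 makes mature microRNAs, 3' UTRs (GENCODE M21, GRCm38, the longest per gene) were searched for the 8-base site of 10 microRNAs, the complement of bases 2 to 8 followed by A. The 10 were let-7a-5p, miR-27a-3p, miR-103-3p, miR-30a-5p, miR-26a-5p, miR-29a-3p, miR-21a-5p, miR-130a-3p, miR-17-5p and miR-33-5p. The only match in the 10 droplet genes was 1 site for miR-103-3p in Plin4, at chr17:56101548-56101569 on the minus strand, and 3.67% of 9435 tested genes with a 3' UTR hold that site. The site is shown with the microRNA, with the seed and its match in capitals.
mmu-miR-103-3p: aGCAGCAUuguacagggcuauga
Plin4 site: cttactagggagaaATGCTGCA
Plin3, whose 3' UTR spans 2256 bases, held none of the 10 sites. MicroRNA levels were not analysed here, shorter sites were not searched, and a match is a description of letters only.

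Genes that act with the droplet proteins were read from lists. Among all genes tested, 0.149% rose and 0.288% fell with all libraries, and 12.5% and 7.22% did without DICERKO replicate 3. Above every control in all 3 DICERKO libraries were 10.4% of all genes tested, and 9.81% were below. Of 12 tested genes of lipolysis at the droplet, 1 rose and 0 fell with all libraries, and 7 rose and 1 (Hilpda, an inhibitor of the lipase ATGL) fell without DICERKO replicate 3. The gene that rose with all libraries was Abhd6, a monoacylglycerol lipase, which read 2.61, 3.01 and 2.76 log2 CPM in controls and 3.80, 3.69 and 3.67 in DICERKO, a difference of 0.93 (SE 0.15, limma adjusted p = 0.0299). Like Plin3 it was above the controls in all 3 DICERKO libraries, and it also rose without replicate 3 (limma adjusted p = 0.000616). Prkar2b, the regulatory subunit of protein kinase A that prevails in fat, differed by 0.50 (SE 0.17, limma adjusted p = 0.236) and rose by 0.72 without that library (adjusted p = 0.000168). The list's median difference was 0.08 with all libraries and 0.48 without DICERKO replicate 3, beside 0.02 over all genes in each fit.

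Of 11 tested genes of triglyceride synthesis none passed with all libraries, and 6 rose and 0 fell without DICERKO replicate 3. Dgat2, which adds the last acyl chain of triglyceride, read 5.97, 6.25 and 5.97 in controls and 6.98, 7.21 and 6.10 log2 CPM in DICERKO. It differed by 0.70 (limma adjusted p = 0.226), with replicate 3 inside the range of the controls, and rose by 1.03 without that library (adjusted p = 1.92e-05). Gpam, the mitochondrial acyltransferase of the pathway's entry step, differed by -0.50 (limma adjusted p = 0.317) and was below every control in all 3 DICERKO libraries (6.80, 6.88 and 5.82 against 6.91 to 7.07). Most of that difference came from replicate 3, without which it was -0.17 (limma adjusted p = 0.233).

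Among 22 tested genes of other droplet surface, contact and trafficking proteins none passed with all libraries, and 7 rose and 0 fell without DICERKO replicate 3. The median of this list in replicate 3 was -0.01 against the control mean, where that of the 8 droplet genes was -0.65. Hsd17b11, a droplet-bound dehydrogenase, was above the controls in all 3 DICERKO libraries (5.39, 5.53 and 5.06 against 4.82 to 4.91 log2 CPM) and differed by 0.46 (SE 0.13, limma adjusted p = 0.161). Without replicate 3 it rose by 0.59 (limma adjusted p = 0.00138). Vps13a, a lipid transfer protein of membrane contacts, differed by 0.40 (SE 0.12, limma adjusted p = 0.187) and was also above every control in each DICERKO library. It rose by 0.41 without replicate 3 (limma adjusted p = 0.0331).

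Of 13 tested transcription factor genes known for this gene set, none passed with all libraries, and 9 rose and 0 fell without DICERKO replicate 3. Ebf2, a factor of brown and beige precursors, differed by 0.35 (SE 0.11, limma adjusted p = 0.202) and was above the controls in all 3 DICERKO libraries, at 5.52, 5.52 and 5.27 log2 CPM against 5.06 to 5.12. Nr1h3, which encodes the oxysterol receptor LXRalpha, differed by 0.65 (SE 0.21, limma adjusted p = 0.215), with replicate 3 at 4.78, inside the range of the controls. Ebf2 rose by 0.43 without DICERKO replicate 3 (adjusted p = 0.00798) and Nr1h3 by 0.95 (adjusted p = 1.89e-05).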

How the data were processed

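The authors deposited log2 CPM, 1 column for each of the 6 libraries. Tools named in the submitters' processing notes, with no version, are HISAT2, featureCounts, edgeR, Trimmomatic and FastQC, and the builds given are GRCm38 and mm10. TMM scaling is named in the series' design text. Strand use in counting is not stated. Every value matched a whole number of reads plus 0.5 over an implied library size of 17594568 to 42331787 (100% of values, tolerance 0.01 reads), and reads of Cidea were taken from this. Of 13734 Entrez IDs, 13682 matched a RefSeq symbol (GRCm38.p6), and 104 of 128 list entries had a row.

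The deposited log2 values were fitted with limma 3.58.1 (R 4.3.3) with an intensity trend and the group as the only term, over 10054 genes that reached 1 CPM in 3 or more libraries, and p-values were Benjamini-Hochberg adjusted over all of them (threshold 0.05). The fit was tested on simulated data. Differences are DICERKO minus control in log2 CPM with 0.5 read added, so low genes are understated. Beside the members and Dicer1, each list's 2 tested genes with the smallest p, all that passed up to 3 in each direction, and the 3 genes most correlated with Plin1, Plin3, Cidea and Fitm2 are named. Other genes, such as those that overlap a member, were named after their values were seen. The members, the 5 pathway lists and the 5 marker lists were chosen with earlier results of these data known. For 4 endothelial and 2 striated muscle markers with a row, summed CPM was 4.94 to 6.09 and 6.39 to 7.37 in controls, and 6.31 to 8.16 and 6.93 to 8.74 in DICERKO. Alternatives changed the scaling, filter, pseudocount (1 CPM), test, replicate term and libraries. The sequences of miR-143-3p and miR-378a-3p were not used here. Other steps ran in Python 3.11.15 (pandas 2.3.3, numpy 2.4.6, matplotlib 3.10.9, scipy 1.17.1).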

Additional observations from a re-analysis of the deposited data

How the results depend on the processing

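With all libraries, 44 genes were called. The count was 19 without the intensity trend, 4484 with weights per library and 3 with all genes scaled to Plin1, a setting chosen after seeing the data. With 1 library left out it ran from 1 to 1983 genes, and the droplet genes called ran from 0 to 7, both highest without DICERKO replicate 3. Droplet genes called numbered 1 (Plin3) when scaled to reads on the listed genes, where 45 of 10054 genes tested were called. The number was 1 with no filter, where 56 of 13734 genes were called. It was 4 with weights per library, where 4484 of 10054 were called. The estimation of those weights stopped before converging, both with all libraries and without DICERKO replicate 3. With all libraries it gave control replicate 1 a weight of 7.54 and DICERKO replicate 3 one of 0.203. Leaving out single libraries moved Plin1 from -0.45 to 0.36, Cidec from -0.51 to 0.29, Bscl2 from -0.18 to 0.45 and Fitm2 from -0.18 to 0.44, across 0, while Plin3 stayed between 0.50 and 0.62. Plin1 and Cidec were also positive with weights per library (0.23 and 0.16).

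Without DICERKO replicate 3, 1983 genes were called, and 1050 without the trend, 4684 with weights per library, 4792 with the replicate block and 4731 scaled to Plin1. Of droplet genes 7 were called, but 3 without the trend (Plin3, Plin4 and Plin5) and 2 scaled to Plin1, where Plin2 (-0.021) and Cidec (-0.075) turned below 0. The number was 8 with the replicate block and with weights per library, beside 4792 and 4684 of 10054 genes tested. Cidec also passed in these 2 settings (0.21 and 0.24, limma adjusted p = 0.0143 and 0.0131). With no filter the number was 8, where Cidea was tested and passed, beside 1962 of 13734 genes. The cause of these changes was not tested. Deviations of same-numbered libraries correlated at 0.195, -0.0142 and -0.0786, and those of other-numbered libraries at -0.227 to 0.166. These values do not settle whether replicate numbers pair the samples. Without DICERKO replicate 3 the replicate block leaves control replicate 3 with no partner and few degrees of freedom. With the replicate block and all libraries 2 genes were called, none of them a droplet gene. Depth limits Cidea alone among the droplet genes, with 6 to 27 reads a library.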
